A study of Mus musculus with 12 samples.

Results

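The 49 genes described here encode the machinery of the G2 phase and of mitosis. They were picked by name for their function, with earlier results of these data known, and all 49 were found among the 55806 genes of the deposited table, each on a single row. Their transcripts were measured by RNA sequencing in cultures of osteoclasts, the multinucleated cells that resorb bone, grown with M-CSF and RANKL until day 4 from marrow monocytes, the mice being 8 to 12 weeks old. Controls and Per2 knockouts of each sex make 4 groups of 3 libraries, and every group has a library in each of 3 labelled batches. Per2 encodes a clock protein that represses its own transcription. The knockout is written cKO in the names of the libraries, the labels give neither the strain, the alleles nor the cells in which Per2 was deleted, and the series title has PER1 although the samples are labelled Per2. Levels are FPKM, fragment counts scaled for gene length and library size. They can be compared between genes, and a level of 1 FPKM in at least 3 libraries was the minimum for a test, which all 49 genes passed. In 48 of the 49 the level was at least 1 FPKM in all 12 libraries, the exception being Cdc25c.

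A dividing cell enters mitosis when the kinase Cdk1, bound to cyclin A or B, is switched on. The spindle then captures the kinetochores of the condensed chromosomes, a checkpoint holds the cell until every kinetochore is attached, and the anaphase-promoting complex destroys cyclin B and securin so that the sister chromatids part and the cell divides. Transcripts of these genes accumulate late in the cell cycle, under the transcription factors B-Myb and FoxM1 and the MuvB complex, and are repressed by the DREAM complex in cells that have stopped dividing. Osteoclasts form when mononuclear precursors, which divide in response to M-CSF, leave the cell cycle and fuse.

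Reads assigned to genes numbered 13888150 to 17762190 per library, apart from 41145397 in male knockout replicate 2. The 49 genes together took 30359 to 83729 reads in a library. The Per2 transcript, in female controls, was at 0.331, 0.530 and 0.368 FPKM. The libraries labelled female knockout read 0.258, 0.204 and 0.589 FPKM, the third being above every female control, which goes against its label. Male controls read 0.579, 0.721 and 0.701 FPKM, and all male knockouts were lower, at 0.466, 0.390 and 0.230 FPKM. Per2 stayed below 1 FPKM, the minimum for a test, in all 12 libraries. It took 18 to 86 reads in each, so these differences rest on few reads. Directions for the female knockouts therefore rest on the labels. The 12 osteoclast markers summed to 8385 to 12998 FPKM in every library, with Ctsk at a mean of 4373 FPKM in female controls and 3908 FPKM in male controls, and so were abundant in all groups. The replicates are called biological in the labels, which tie none to a separate mouse, and the spread behind each p-value is that between libraries and may be technical. In cultures of mixed cells, fewer dividing cells and less RNA of these genes per cell cannot be told apart.

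In females, 48 of the 49 genes fell and 1, Pttg1, rose in the libraries labelled knockout (limma adjusted p under 0.05 for all 49). Over all 12102 genes tested, 24.9% fell and 24.9% rose in the same comparison. Without female knockout replicate 3, the library in which Per2 goes against the label, 48 of the 49 fell and 1 rose as well. The summed level of the 49 genes was 888, 891 and 888 FPKM in female controls and 587, 542 and 542 FPKM in female knockouts. It was 428, 452 and 425 FPKM in male controls and 407, 471 and 432 FPKM in male knockouts. The female controls therefore stood alone at the top, the female knockouts lay between them and the males, and the 2 male groups overlapped. The median ratio of knockout to control means was 0.617 in females (0.490 for Spc25 to 1.68 for Pttg1) and 0.988 in males (0.896 for Ube2c to 1.12 for Cks2). The median log2 change, on the log2(FPKM + 1) scale, was −0.63 in females and −0.01 in males, where it was −0.01 and 0.01 over all genes tested. Within batches 1, 2 and 3 the female median was −0.56, −0.64 and −0.67, and 48 of the 49 genes were lower in each of the 3 pairs.

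**Figure D1:**
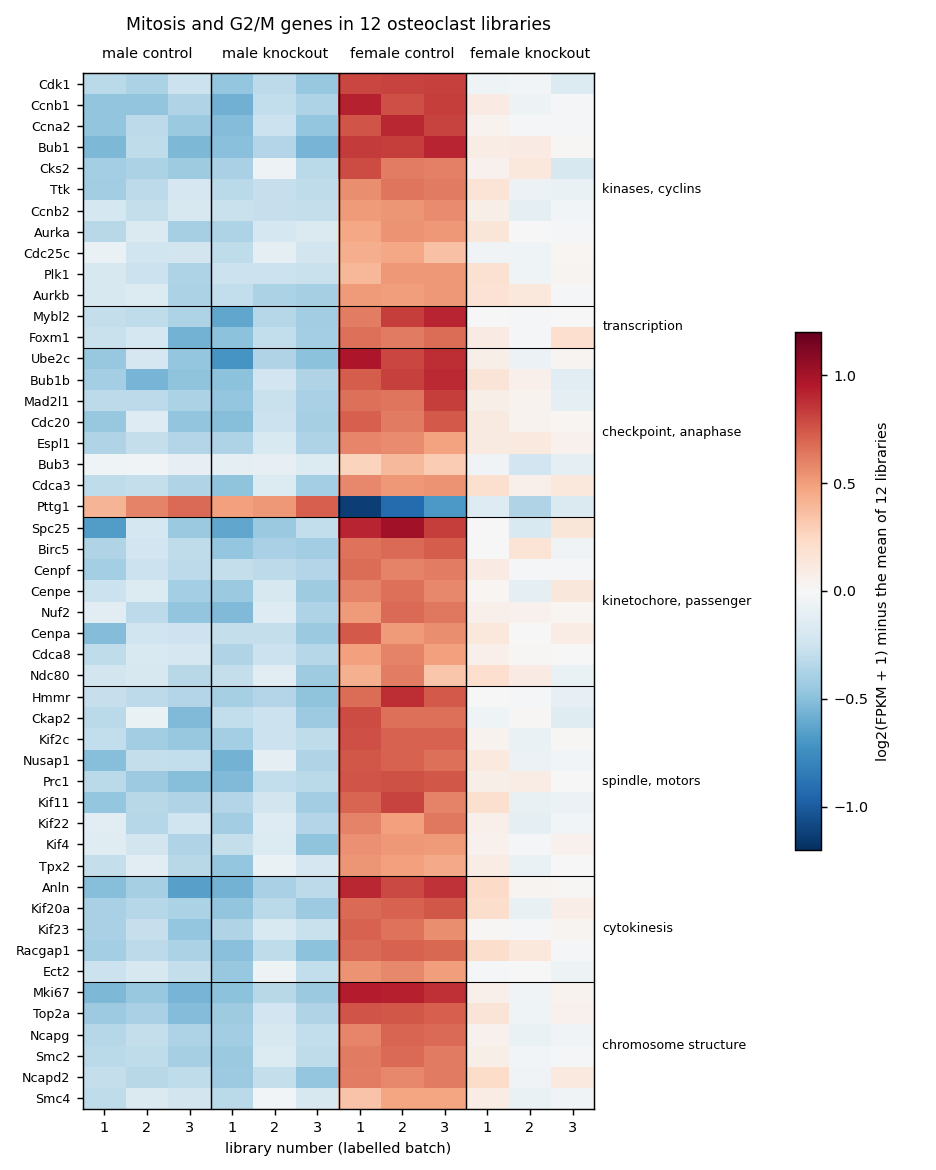
Each row is 1 of the 49 genes, grouped by role, and each column 1 of the 12 libraries. The colour is log2(FPKM + 1) minus the gene's mean over the 12 libraries. The female controls are the highest libraries for 48 genes and the lowest for Pttg1, and the female knockouts lie between them and the male libraries for most.

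The spread within groups was small beside these differences. The median coefficient of variation over the 49 genes was 4.38% in female controls, 6.56% in female knockouts, 6.81% in male controls and 9.05% in male knockouts. The libraries of the female groups did not overlap for any of the 49 genes. For 48 the knockouts were all lower, against 29.9% of all genes tested, and for Pttg1 they were all higher, against 28.5%.

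The starts of 9 of the genes are shown, 7 that hold the motifs described here and 2, Mybl2 and Pttg1, that hold none of the spellings searched in this stretch. They run 5′ to 3′ in the direction of the gene from 170 bases before the start of the transcript to 30 after it, are from RefSeq (GRCm38.p6), and were chosen after the motifs had been counted. Capitals mark, on either strand, the CHR element (TTTGAA or TTTAAA), which MuvB complexes bind, the CCAAT box of the factor NF-Y, and the E2F motif (TTTCGCGC or TTTGGCGC). Other spellings of E2F sites were not searched, so letters in lower case may still hold one.
Cdk1 (chr10:69352883-69353082, minus strand): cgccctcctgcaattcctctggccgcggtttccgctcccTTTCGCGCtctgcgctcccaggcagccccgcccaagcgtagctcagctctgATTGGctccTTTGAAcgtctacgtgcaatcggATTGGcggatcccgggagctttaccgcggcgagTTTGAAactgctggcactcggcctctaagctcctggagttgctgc
Ccnb1 (chr13:100786457-100786656, minus strand): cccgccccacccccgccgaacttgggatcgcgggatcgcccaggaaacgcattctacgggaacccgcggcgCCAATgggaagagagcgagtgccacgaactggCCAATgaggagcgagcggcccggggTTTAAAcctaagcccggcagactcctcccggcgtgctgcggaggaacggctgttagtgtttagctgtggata
Ube2c (chr2:164769759-164769958, plus strand): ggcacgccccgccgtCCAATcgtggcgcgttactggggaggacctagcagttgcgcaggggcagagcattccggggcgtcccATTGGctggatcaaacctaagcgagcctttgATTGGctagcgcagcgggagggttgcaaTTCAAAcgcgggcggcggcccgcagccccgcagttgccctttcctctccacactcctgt
Cdca8 (chr4:124936888-124937087, minus strand): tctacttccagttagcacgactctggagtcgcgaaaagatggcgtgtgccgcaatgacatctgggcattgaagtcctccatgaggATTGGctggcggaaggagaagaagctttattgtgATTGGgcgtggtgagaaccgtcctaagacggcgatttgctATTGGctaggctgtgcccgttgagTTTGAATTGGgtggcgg
Hmmr (chr11:40733408-40733607, minus strand): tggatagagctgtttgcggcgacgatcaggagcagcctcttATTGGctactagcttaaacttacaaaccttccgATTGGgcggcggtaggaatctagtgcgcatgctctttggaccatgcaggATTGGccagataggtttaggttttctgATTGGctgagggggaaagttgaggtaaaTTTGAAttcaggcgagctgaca
Kif23 (chr9:61946770-61946969, minus strand): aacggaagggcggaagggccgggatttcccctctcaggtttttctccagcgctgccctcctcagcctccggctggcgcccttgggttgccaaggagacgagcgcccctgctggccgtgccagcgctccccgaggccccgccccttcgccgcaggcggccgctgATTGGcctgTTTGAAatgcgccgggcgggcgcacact
Mki67 (chr7:135716350-135716549, minus strand): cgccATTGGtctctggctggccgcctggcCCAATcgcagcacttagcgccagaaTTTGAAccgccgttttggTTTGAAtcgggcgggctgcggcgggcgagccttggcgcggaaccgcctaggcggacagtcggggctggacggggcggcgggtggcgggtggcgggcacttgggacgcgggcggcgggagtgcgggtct
Mybl2 (chr2:163054465-163054664, plus strand): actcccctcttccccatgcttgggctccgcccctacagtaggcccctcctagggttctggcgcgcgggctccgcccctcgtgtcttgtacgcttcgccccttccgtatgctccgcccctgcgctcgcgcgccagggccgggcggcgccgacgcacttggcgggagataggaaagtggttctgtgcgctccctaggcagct
Pttg1 (chr11:43425952-43426151, minus strand): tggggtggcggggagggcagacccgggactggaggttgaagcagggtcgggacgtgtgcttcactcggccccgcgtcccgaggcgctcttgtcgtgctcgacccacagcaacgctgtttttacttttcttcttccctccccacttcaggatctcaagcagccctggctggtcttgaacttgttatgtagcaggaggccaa

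In the 300 bases from 250 before to 50 after the start, 35 of the 42 members with a RefSeq promoter in the table held a CHR element (83.3%). The share was 30.6% of 27025 genes with a promoter in the same table and 22.5% of the 8601 other genes tested here. The form TTTGAA alone was found in 76.2% of the members, 20.2% of all genes and 14.3% of the other genes tested. A CCAAT box was present in 78.6% of the members, 41.1% of all genes and 42.9% of the other genes tested, and at 2 or more places in 52.4%, 13.3% and 17.0%. The E2F motif, searched only as TTTCGCGC or TTTGGCGC, was rare, with 4.8% of the members, 0.9% of all genes and 1.9% of the other genes tested. These shares do not cover E2F sites of other spellings. In the sequences shown, Cdk1 has 2 CHR elements, 2 CCAAT boxes and the E2F motif, and Hmmr has 1 CHR element and 4 CCAAT boxes. The 7 members with no CHR element in the window were Bub1, Cks2, Mad2l1, Mybl2, Nuf2, Nusap1 and Pttg1. The first 6 of these fell in female knockouts as the other genes did. A match is a description of these letters and not a binding site, and a link between motifs and the knockout changes was not tested. The starts of Smc4, Aurkb, Tpx2, Ccna2, Foxm1, Kif20a and Cdc25c were not analysed here.

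**Figure D2:**
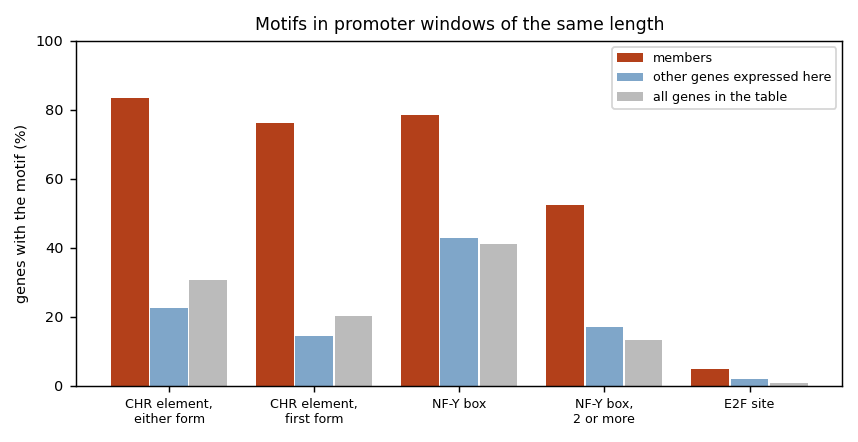
Bars give the percentage of genes whose 300-base promoter window holds each motif, for the 42 members, the 8601 other genes tested here and the 27025 genes of the promoter table. CHR elements are present in 83.3% of the members against 22.5% and 30.6% of the other 2 sets.

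Mitotic kinases, cyclins and their regulators fell as a block, 11 of 11, with ratios of female knockout to control from 0.522 to 0.739. Cdk1, the kinase that drives mitotic entry (chromosome 10), was 26.6, 26.8 and 26.9 FPKM in female controls and 14.3, 14.5 and 13.2 FPKM in female knockouts. It was 11.6, 11.2 and 12.3 FPKM in male controls and 10.5, 11.7 and 10.6 FPKM in male knockouts. The log2 change in females was −0.89 ± 0.05 (SE, limma adjusted p = 2.35e-07), and no female knockout library came near the female controls. Its partner Ccnb1, cyclin B1 (chromosome 13), was 28.0, 25.2 and 26.3 FPKM in female controls and 15.4, 13.7 and 14.1 FPKM in female knockouts (−0.84 ± 0.07, limma adjusted p = 4.98e-06). Ccna2, cyclin A2 (chromosome 3), was 30.8, 34.3 and 32.2 FPKM and 18.5, 17.6 and 17.8 FPKM (−0.82 ± 0.07, limma adjusted p = 4.22e-06). In the 6 male libraries Ccnb1 ranged from 9.30 to 11.5 FPKM and Ccna2 from 12.2 to 14.9 FPKM, below every female knockout. Ccnb2, cyclin B2 (chromosome 9), changed less, from 31.6, 31.9 and 32.8 FPKM to 22.9, 20.0 and 21.3 FPKM (−0.56 ± 0.05, limma adjusted p = 3.73e-06).

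The polo and Aurora kinases had the smallest changes among the kinases. Plk1, polo-like kinase 1 (chromosome 7), was 19.8, 21.6 and 21.5 FPKM in female controls and 16.9, 14.2 and 15.0 FPKM in female knockouts (−0.43 ± 0.07, limma adjusted p = 0.000281). Aurkb, the kinase of the chromosomal passenger complex (chromosome 11), was 20.1, 20.0 and 20.2 FPKM and 15.8, 15.2 and 13.6 FPKM (−0.42 ± 0.07, limma adjusted p = 0.000335). Aurka, which matures the spindle poles, had a ratio of 0.713. The checkpoint kinases Bub1 and Ttk had ratios of 0.556 and 0.588, and Cks2, a small subunit that binds Cdk1, had 0.622. The phosphatase Cdc25c, which activates Cdk1, was the lowest of the 49 genes, at 2.10, 2.16 and 1.93 FPKM in female controls and 1.23, 1.22 and 1.33 FPKM in female knockouts (−0.44 ± 0.08, limma adjusted p = 0.00124).

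Both transcription factors fell. Mybl2, which encodes B-Myb (chromosome 2), was 13.6, 15.9 and 17.0 FPKM in female controls, 8.55, 8.48 and 8.54 FPKM in female knockouts, 6.84, 6.71 and 6.41 FPKM in male controls and 5.20, 6.55 and 6.17 FPKM in male knockouts. The female change was −0.79 ± 0.08 (limma adjusted p = 1.6e-05). Foxm1, a forkhead factor (chromosome 6), was 9.46, 9.23 and 9.52 FPKM in female controls and 6.09, 5.57 and 6.64 FPKM in female knockouts (−0.55 ± 0.09, limma adjusted p = 0.000465).

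Of the 8 genes of the checkpoint and of anaphase, 7 fell and Pttg1 rose. Ube2c, the ubiquitin-conjugating enzyme of the anaphase-promoting complex (chromosome 2), was 37.1, 32.9 and 34.9 FPKM in female controls and 19.5, 17.5 and 18.8 FPKM in female knockouts (−0.88 ± 0.09, limma adjusted p = 2.22e-05). Bub1b, the checkpoint protein BubR1 (chromosome 2), was 30.0, 32.2 and 33.8 FPKM and 19.9, 18.6 and 16.1 FPKM (−0.78 ± 0.08, limma adjusted p = 2.23e-05). Mad2l1, which encodes the checkpoint protein Mad2 (chromosome 6), was 9.82, 9.73 and 11.2 FPKM and 6.21, 6.07 and 5.31 FPKM (−0.71 ± 0.07, limma adjusted p = 1.4e-05). In all 3 the highest knockout library was below the lowest control. Cdc20, the activator of the anaphase-promoting complex that the checkpoint restrains, had a ratio of 0.632, and Cdca3, a further adaptor of protein destruction at mitotic entry, had 0.737. Bub3, a checkpoint protein (chromosome 7), was the member least different between the sexes, at 15.1, 13.1 and 14.4 FPKM in female knockouts and 14.3, 14.4 and 13.8 FPKM in male knockouts, with female controls at 18.9, 20.7 and 19.4 FPKM.

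Pttg1 and Espl1 encode the pair that controls sister separation, and they moved in opposite directions. Pttg1 encodes securin, the inhibitor of separase (chromosome 11). It was 6.07, 7.11 and 8.59 FPKM in female controls, 12.9, 11.0 and 12.7 FPKM in female knockouts, 19.5, 22.4 and 23.8 FPKM in male controls and 20.7, 21.2 and 24.4 FPKM in male knockouts. Female controls were lowest, female knockouts lay above them and all male libraries were higher still, with no overlap between these 3 sets. The female knockout change was 0.68 ± 0.11 (limma adjusted p = 0.000465), and female controls were 0.332 times the male controls. Espl1, which encodes separase, the protease that cuts cohesin (chromosome 15), was 11.3, 11.1 and 10.5 FPKM in female controls, 7.82, 7.88 and 7.48 FPKM in female knockouts, 5.38, 5.72 and 5.41 FPKM in male controls and 5.31, 6.19 and 5.32 FPKM in male knockouts (−0.45 ± 0.06 in females, limma adjusted p = 6.3e-05). Pttg1, Espl1, Bub3, Cdc25c and Ndc80 were given in full after their values were seen.

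**Figure D3:**
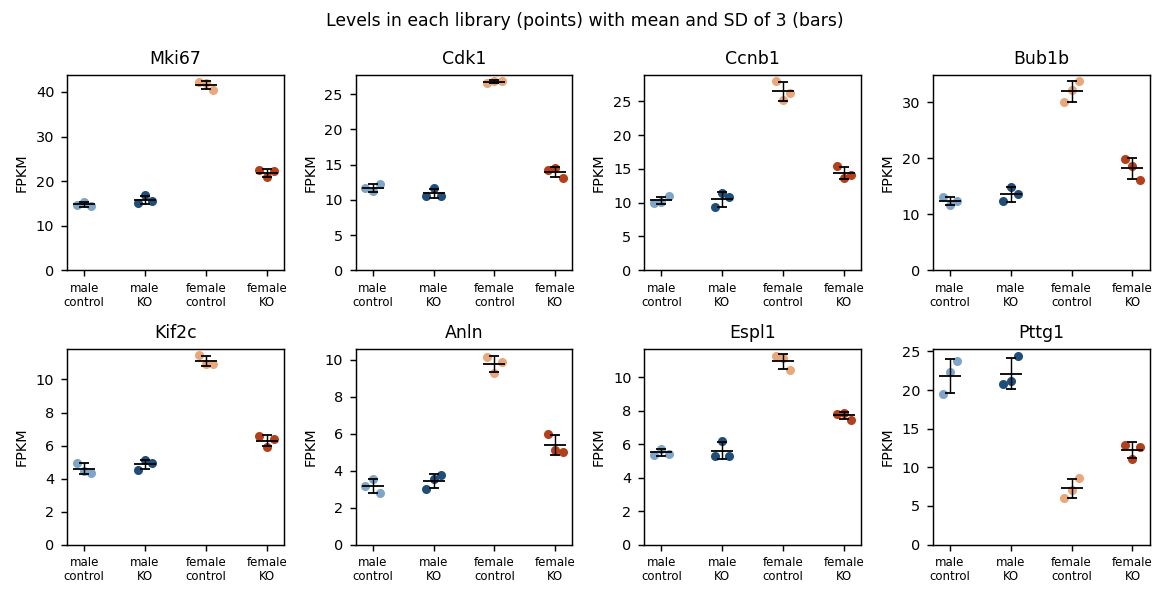
FPKM of 8 genes in each library (points), with the mean and SD of the 3 libraries of a group (bars) and axes from 0, KO standing for knockout. In 7 panels the female controls are highest, with Mki67 at 40.5 to 42.3 FPKM, and in the panel of Pttg1 they are lowest, at 6.07 to 8.59 FPKM.

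All 8 genes of the centromere, the kinetochore and the passenger complex fell. Birc5, survivin, a subunit of the passenger complex (chromosome 11), was 15.4, 15.7 and 16.3 FPKM in female controls and 9.43, 10.7 and 9.14 FPKM in female knockouts (−0.65 ± 0.06, limma adjusted p = 4.82e-06). Cdca8, borealin of the same complex (chromosome 4), was 11.7, 12.7 and 11.7 FPKM and 8.42, 8.12 and 8.02 FPKM (−0.50 ± 0.05, limma adjusted p = 1.24e-05). Cenpf, a kinetochore protein (chromosome 1), was 4.41, 4.11 and 4.17 FPKM and 2.63, 2.33 and 2.35 FPKM (−0.61 ± 0.06, limma adjusted p = 1.5e-05). Among subunits of the NDC80 complex, which grips microtubules, the ratio was 0.490 for Spc25, 0.629 for Nuf2 and 0.720 for Ndc80. The remaining subunit, Spc24, is not among the 49 and had a ratio of 0.583. Ndc80 (chromosome 17) had female controls at 4.93, 5.77 and 4.59 FPKM and female knockouts at 4.08, 3.73 and 3.20 FPKM (−0.38 ± 0.10, limma adjusted p = 0.00759). Cenpa, the histone H3 variant that marks centromeres, and the kinesin Cenpe had ratios of 0.666 and 0.629.

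All 9 spindle genes fell. Hmmr, a spindle assembly protein (chromosome 11), was 11.9, 14.0 and 12.5 FPKM in female controls and 7.10, 7.05 and 6.57 FPKM in female knockouts (−0.80 ± 0.06, limma adjusted p = 1.4e-06). Kif2c, a kinesin that disassembles microtubules at the centromere (chromosome 4), was 11.5, 10.9 and 10.9 FPKM and 6.55, 5.94 and 6.40 FPKM (−0.73 ± 0.06, limma adjusted p = 1.84e-06). Prc1, which bundles the microtubules of the midzone (chromosome 7), was 8.61, 8.67 and 8.53 FPKM and 4.96, 5.07 and 4.71 FPKM (−0.70 ± 0.07, limma adjusted p = 9e-06). The female controls of Prc1 lay within 0.2 FPKM of each other. The other 6 had ratios from 0.534 for Ckap2, a spindle-associated protein, to 0.699 for Tpx2, the activator of Aurora A. Kif11, the motor that pushes the spindle poles apart, had 0.601.

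All 5 cytokinesis genes fell. Anln, anillin, the scaffold of the contractile ring (chromosome 9), was 10.2, 9.32 and 9.89 FPKM in female controls and 5.99, 5.10 and 5.02 FPKM in female knockouts (−0.76 ± 0.09, limma adjusted p = 3.06e-05). Kif20a, a midzone kinesin (chromosome 18), was 13.0, 13.2 and 13.6 FPKM and 9.07, 7.18 and 8.22 FPKM (−0.64 ± 0.07, limma adjusted p = 2.12e-05). Kif23, the kinesin of the centralspindlin complex (chromosome 9), was 7.94, 7.59 and 7.05 FPKM and 4.52, 4.36 and 4.59 FPKM (−0.63 ± 0.06, limma adjusted p = 1.36e-05). Its partner Racgap1 had a ratio of 0.646 and Ect2, the exchange factor that activates RhoA at the cleavage site, 0.637, so the 3 genes of this pathway were close to each other.

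All 6 genes of chromosome structure fell, Mki67 and Top2a among the most abundant of the 49. Mki67, the proliferation antigen Ki-67 that coats mitotic chromosomes (chromosome 7), was 42.3, 41.9 and 40.5 FPKM in female controls, 22.6, 20.9 and 22.2 FPKM in female knockouts, 14.5, 15.4 and 14.3 FPKM in male controls and 15.0, 16.9 and 15.6 FPKM in male knockouts. Its female change was −0.90 ± 0.05 (limma adjusted p = 1.42e-07). Top2a, the topoisomerase that untangles sister chromatids (chromosome 11), was 53.4, 53.0 and 52.1 FPKM in female controls and 34.9, 30.1 and 32.5 FPKM in female knockouts (−0.69 ± 0.06, limma adjusted p = 6.54e-06). The condensin subunits spread from 0.575 for Ncapg and 0.633 for Smc2 to 0.694 for Ncapd2 and 0.728 for Smc4, as ratios of means. Ncapg (chromosome 5) was 7.29, 7.94 and 7.84 FPKM in female controls and 4.70, 4.20 and 4.35 FPKM in female knockouts (−0.68 ± 0.06, limma adjusted p = 7.64e-06).

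In males none of the 49 genes passed the test, and limma called 0.0% of the 12102 genes in either direction. At an unadjusted p under 0.05 there were 0 of the 49, and 0 were called by limma voom run on recovered reads. The 3 with the smallest p were Birc5, Mki67 and Top2a. Birc5 was 7.10, 7.88 and 7.43 FPKM in male controls and 6.56, 6.98 and 6.82 FPKM in male knockouts (−0.12 ± 0.06, limma adjusted p = 0.737), with no overlap between the groups. Mki67 differed by 0.09 ± 0.05 (limma adjusted p = 0.775) and Top2a, at 22.9, 23.6 and 21.5 FPKM and 23.1, 26.6 and 24.2 FPKM, by 0.11 ± 0.06 (limma adjusted p = 0.793). The libraries did not overlap for 2 genes, Birc5 and Bub3, both lower in knockouts, where 5.24% of all genes tested had that pattern, and for 0 genes with knockouts higher, against 7.06%. Within batches 1, 2 and 3 the median of the 49 was −0.07, 0.05 and −0.02. Without male knockout replicate 2 it was −0.07.

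The difference between the knockout effects of the sexes, female minus male, was tested as an interaction. It passed for 48 of the 49 genes, 47 with a more negative change in females and Pttg1 with a more positive one, where 16.7% and 17.9% of all genes passed in these directions. The largest was that of Mki67 (−0.99 ± 0.07, limma adjusted p = 2.88e-06). For Cdk1 it was −0.80 ± 0.07 (limma adjusted p = 1.84e-05) and for Pttg1 0.67 ± 0.16 (limma adjusted p = 0.00783). Ndc80 did not pass (−0.35 ± 0.14, limma adjusted p = 0.0762) and passed with the batch as a replicate block (limma adjusted p = 0.017), with assigned reads (0.0308), when rescaled to nuclear protein-coding genes (0.0284), by voom (0.0136) and without male knockout replicate 3 (0.0446). The calls of Aurkb and Cdc25c were near the threshold (limma adjusted p = 0.0266 and 0.0207). That of Aurkb was lost with no filter on low values (0.0603) and without male knockout replicate 1 (0.0596), female control replicate 3 (0.051) or female knockout replicate 3 (0.0556). That of Cdc25c was lost without male knockout replicate 2 (0.0525) or female control replicate 2 (0.0507). Without both female knockout replicate 3 and male knockout replicate 2 the values were 0.0815 and 0.0681.

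**Figure D4:**
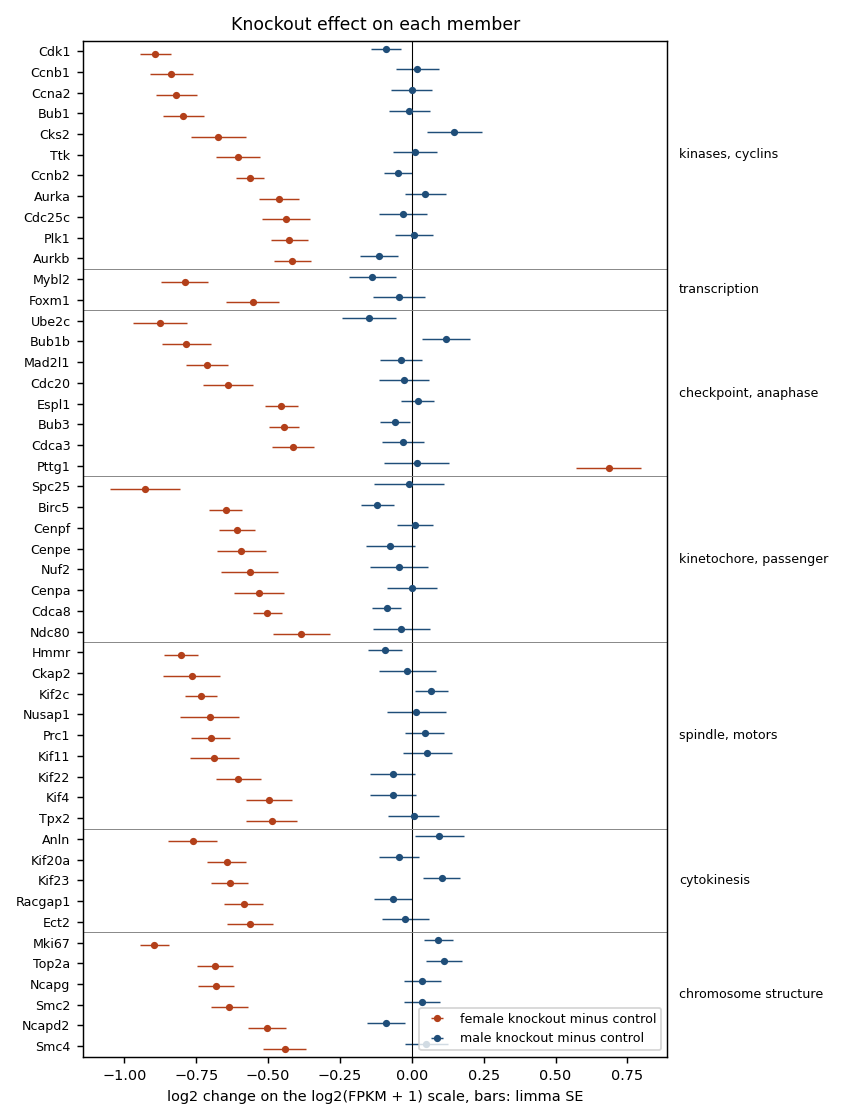
Log2 change from control to knockout of each gene in females and in males, with limma standard errors, ordered by role. In females 48 genes lie at −0.38 or below and Pttg1 at 0.68, while in males all 49 lie between −0.15 and 0.15.

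Between the sexes, the female controls were higher than the male controls for 48 of the 49 genes and lower for Pttg1 (limma adjusted p under 0.05), against 29.5% and 30.7% of all genes tested. No male and female control libraries overlapped for these genes, 48 higher and 1 lower in females, against 32.2% and 32.7% of all genes. The median log2 difference was 0.99 and the median ratio of means 2.22. The largest ratios were those of Anln (3.09), Spc25 (2.90) and Mki67 (2.81), and the smallest above 1 was that of Bub3 (1.33). Female knockouts remained higher than male knockouts for 43 genes, where 13.1% of all genes were higher, and lower for Pttg1, where 20.4% were lower. Knockout libraries of the sexes did not overlap for 44 genes higher and 1 lower in females, against 20.9% and 27.9%. The median difference there was 0.37. The 5 that did not pass were Bub3 (0.00, limma adjusted p = 0.988), Smc4 (0.17, 0.102), Cdc25c (0.19, 0.0974), Cks2 (0.25, 0.068) and Ckap2 (0.26, 0.0643). For 43 of the 49 genes every female control was above every female knockout and every female knockout above every male library, an order found for 7.59% of all genes tested. Pttg1 had the inverse order, found for 13.1%. The knockout and sex comparisons share the same control libraries.

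The rest of the cell cycle is described by lists chosen by function. Of all genes tested, 24.9% fell and 24.9% rose in female knockouts, or 36.3% and 18.4% with assigned reads as the denominator. Counts of the lists are from the main model unless another scaling is named. Of 50 further G2 and mitosis genes that are not among the 49, 47 fell in female knockouts and 0 rose, with a median ratio of 0.645. Aspm, a spindle pole protein, went from a mean of 4.69 to 2.35 FPKM (−0.77, limma adjusted p = 2.05e-06), Trip13, a checkpoint ATPase, from 8.85 to 5.06 FPKM (−0.70, limma adjusted p = 1.89e-06) and Ncapd3, a condensin II subunit, from 8.66 to 5.62 FPKM (−0.55, limma adjusted p = 5.09e-07). The 3 that did not pass were Depdc1b, Pkmyt1 and Ncapg2. Of 40 genes of DNA replication and S phase, 23 fell and 0 rose, with a median ratio of 0.806, so the ratios lay nearer to 1 than those of the mitosis genes, a difference between lists that was not tested. Among them were Ccne2, cyclin E2, from 16.2 to 9.92 FPKM (−0.66, limma adjusted p = 3.14e-05), Rrm2, a subunit of ribonucleotide reductase, from 41.6 to 27.7 FPKM (−0.57, limma adjusted p = 2.29e-05), and Tyms, thymidylate synthase, from 7.50 to 5.07 FPKM (−0.49, limma adjusted p = 5.68e-05).

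**Figure D5:**
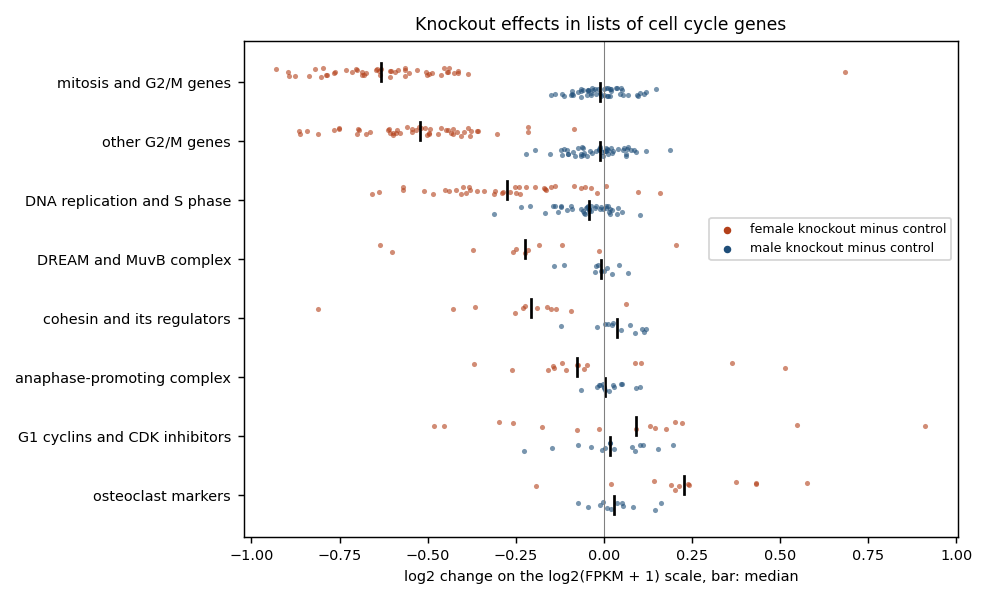
Log2 change from control to knockout for the tested genes of 8 lists in females and in males, each point a gene and each bar the median. The female medians run from −0.63 for the 49 genes and −0.52 for the other G2/M genes to 0.23 for the osteoclast markers, and the male medians from −0.04 to 0.04.

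Further lists cover regulators and partners of these genes. Of the 11 genes of the DREAM and MuvB complexes 7 fell, led by Tfdp1, the dimer partner of E2F factors, from 51.7 to 33.7 FPKM (−0.60, limma adjusted p = 5.17e-07), E2f5 (−0.63, limma adjusted p = 6.36e-05) and Rbbp4 (−0.37, limma adjusted p = 3.74e-05). Of 12 genes of cohesin and its regulators 10 fell, among them Esco2, the acetyltransferase that establishes cohesion, from 5.09 to 2.47 FPKM (−0.81, limma adjusted p = 7.74e-06), Stag2 (−0.37, limma adjusted p = 0.000155) and Smc3 (−0.43, limma adjusted p = 0.000419). The anaphase-promoting complex was mixed, with 4 of 15 lower and 2 higher, where 24.9% of all genes passed in each direction. When rescaled to nuclear protein-coding genes 9 were lower, and so were 36.9% of all genes. Its members with the smallest p were Cdc27 (−0.37, limma adjusted p = 9.97e-05), Anapc5 (0.36, limma adjusted p = 0.000111) and Anapc13 (0.51, limma adjusted p = 0.000678). G1 cyclins, their kinases and CDK inhibitors were mixed too, with 2 of 15 higher and 5 lower, and a median of 0.09 that became −0.01 with assigned reads as the denominator. Ccnd2, cyclin D2, rose from 1.84 to 4.40 FPKM (0.91, limma adjusted p = 5.91e-05) and Ccnd3, cyclin D3, from 6.36 to 9.78 FPKM (0.55, limma adjusted p = 0.000455), while Cdk4, their partner kinase, fell from 56.2 to 40.0 FPKM (−0.48, limma adjusted p = 9.81e-06).

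Among markers of other cells, those of B cells moved with the mitosis genes in female knockouts and those of monocytes and macrophages mostly against them. Between the knockouts of the sexes, 0 of the 5 B cell markers tested passed, with a median log2 difference of −0.22. There 43 of the 49 mitosis genes were higher in females, as were 13.1% of all genes tested. The part of other cells in the result was not tested. The 10 B cell markers summed to 28.1 to 43.6 FPKM in female controls and 11.3 to 14.2 FPKM in female knockouts. They summed to 12.7 to 20.8 FPKM in male controls and 10.7 to 22.2 FPKM in male knockouts. The 5 that could be tested all fell in female knockouts. A gene at 1 FPKM in the 3 female controls alone meets the minimum for a test, so the filter can set this count in part. Cd79a went from 9.59 to 2.59 FPKM (−1.57, limma adjusted p = 0.00331) and Ms4a1 from 1.82 to 0.459 FPKM (−0.94, limma adjusted p = 0.00221). Monocyte and macrophage markers went the other way, with 11 of 12 higher and 1 lower in female knockouts. They summed to 1117 to 1149 FPKM in female controls, 1967 to 2173 FPKM in female knockouts, 2712 to 3041 FPKM in male controls and 2814 to 2905 FPKM in male knockouts. The erythroid list summed to 327 to 362 FPKM in female controls, 210 to 282 FPKM in female knockouts and 159 to 204 FPKM in the male libraries, of which Tfrc, the transferrin receptor, made up a mean of 336, 238, 177 and 176 FPKM in female controls, female knockouts, male controls and male knockouts. Of the 10 genes of this list 3 could be tested, with ratios of female knockout to control from 0.627 to 1.22. Of these 1 fell and 0 rose, where 24.9% of all genes tested passed in each direction. The erythroid genes Klf1 and Alas2 had means of at most 0.0947 FPKM in every group. Of the mast cell and basophil markers 2 of 7 tested fell, where 24.9% of all genes tested fell. The list summed to 22.4 to 42.5 FPKM in female controls and 12.4 to 17.7 FPKM in female knockouts. It summed to 16.3 to 36.9 FPKM in male controls and 23.8 to 55.4 FPKM in male knockouts, with Cma1 at 0 in every library.

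Neutrophil markers summed to 2439 to 2625 FPKM in female controls and 2376 to 3082 FPKM in female knockouts (1 of 10 higher, 0 after quantile normalization), against 3222 to 5466 FPKM in male controls and 3707 to 4604 FPKM in male knockouts. Stem and progenitor markers summed to 222 to 268 FPKM in every library (1 of 6 tested higher and 2 lower, and 0 higher with assigned reads as the denominator). Stromal markers summed to 3.69 to 26.5 FPKM in female controls, 4.67 to 15.0 FPKM in female knockouts, 15.5 to 34.3 FPKM in male controls and 5.41 to 8.75 FPKM in male knockouts, and 0 of 6 tested passed in females, or 1, lower, with assigned reads as the denominator. Of the 12 osteoclast markers 6 rose and 1 fell in female knockouts, and 2 rose and 1 fell after quantile normalization. Over all genes tested, 24.9% rose and 24.9% fell in female knockouts. The shares were 20.4% and 29.3% after quantile normalization, and 18.4% and 36.3% with assigned reads as the denominator. In the reference annotation 15 of the 49 genes share 53 to 1271 exon bases with another gene, such as Kif20a with Cdc23 and Ccna2 with Exosc9. The strand setting of the counting is not given in the sources used here, so reads in these stretches cannot be assigned to either gene with certainty.

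The scaling in the deposited values differed between groups. Assigned reads divided by the FPKM denominator gave 0.936 to 0.948 for female controls, 1.007 to 1.017 for female knockouts and 1.075 to 1.105 for males. With assigned reads as the denominator, 36.3% of all genes fell and 18.4% rose in female knockouts, and female controls were higher than male controls for 46.9% of genes and lower for 20.4%. The counts of the 49 genes in both comparisons were the same under that scaling, 48 and 1. The median log2 change of the 49 in female knockouts was then −0.73, where that of all genes was −0.10.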

How the data were processed

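The deposited table gives FPKM values that the authors computed from RNA sequencing, 1 per gene and library, for 12 libraries. Labels supplied group, sex and batch. HISAT2 2.0.5, featureCounts 1.5.0-p3 and build mm10 are listed per the submitters' processing notes. Neither strand setting nor FPKM denominator is given in those notes. The deposited table also holds gene lengths in bases. One line that holds no gene was left out, 0 value columns were unmapped, and gene positions in the table were not used.

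Reads were recovered from FPKM, gene length and the step of 1 read, and 100.0% of the values above 0 were whole within 0.01. Depth limits precision by counting error, on 30359 reads or more for the 49 genes.

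A linear model in limma 3.58.1 (R 4.3.3) described log2(FPKM + 1), a scale that understates changes of low genes, over the 12102 genes with at least 1 FPKM in at least 3 libraries. It used the 4 group means of all 12 libraries, a trend in the prior variance, no block, two-sided tests and Benjamini-Hochberg adjustment over all genes, with a threshold of 0.05. The procedure was tested on simulated data. Every adjusted p is from this model unless another is named. Standard errors are limma's and ratios are of group means of FPKM.

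The 49 genes and the lists were chosen with earlier results of these data known. Values per library are given for the 3 genes of each role with the smallest p in females and for Mki67, Cdk1, Ccnb1, Top2a, Plk1, Aurkb, Foxm1 and Birc5. Library numbers are the labelled batches and so pair libraries across groups. Deviations from group means had a mean r of 0.021 in 18 same-batch pairs (−0.118 to 0.092) and −0.011 in 36 others. Deviations cancel within a group, so the second mean follows largely from the first and is no separate comparison. Promoters are RefSeq windows of GRCm38.p6, matched by symbol for 42 of the 49 genes, and motifs were searched on both strands. Alternatives covered the pseudocount, the filter, the scaling, voom, weights, the block and left-out libraries.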

Additional observations from a re-analysis of the deposited data

Results flagged for a closer look

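The difference between the knockout effects of females and males, tested as an interaction in limma, passed for 47 genes in the negative direction and for Pttg1 in the positive one. Of all genes tested, 16.7% passed in the negative direction and 17.9% in the positive one. Values are female minus male log2 change. They are listed only for the genes whose levels were given in full above, so other genes that passed are left out. Among kinases, cyclins and their regulators, where all 11 passed, it was found for Cdk1 (−0.80), Ccnb1 (−0.86), Ccna2 (−0.82), Ccnb2 (−0.52), Plk1 (−0.43), Cdc25c (−0.41) and Aurkb (−0.30). The calls of Cdc25c and Aurkb were lost under some alternatives. Among the transcription factors, it was found for Mybl2 (−0.65) and Foxm1 (−0.51). Among the checkpoint and anaphase genes, it was found for Bub1b (−0.90), Ube2c (−0.73), Mad2l1 (−0.68), Espl1 (−0.47) and Bub3 (−0.39). Among the centromere and passenger genes, it was found for Cenpf (−0.62), Birc5 (−0.53) and Cdca8 (−0.42). Among the spindle genes, it was found for Kif2c (−0.80), Prc1 (−0.75) and Hmmr (−0.71). Among the cytokinesis genes, it was found for Anln (−0.86), Kif23 (−0.74) and Kif20a (−0.60). Among the chromosome genes, it was found for Mki67 (−0.99), Top2a (−0.80) and Ncapg (−0.72). For Pttg1 the value was 0.67, the only positive one among the genes named.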

How the results depend on the processing

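The counts of called genes among the 49 stayed within 1.5 times their reported values under every alternative run, and 0 of the named genes changed sign in a comparison where it was called (sign changes of values called in neither fit were not counted). In female knockouts 48 fell without any 1 library, and 44 of the 45 that passed an FPKM filter of 5. Leaving out 1 library gave 46 to 48 negative interactions and 38 to 45 genes higher in female than in male knockouts, and the other alternatives 44 to 48 and 37 to 47. A replicate block for batch gave 48 lower and 1 higher in female knockouts and 48 negative interactions, the added one being Ndc80, and changed no other call count. Some medians moved by more than the SD of the within-batch medians. In female knockouts the median was −0.45 with a pseudocount of 5, −0.73 with assigned reads, −0.74 when rescaled to nuclear protein-coding genes and −0.81 by voom, and the interaction median was −0.45 with a pseudocount of 5 and −0.81 by voom. Between controls of the sexes it was 1.14 for pseudocount 0.1, 0.67 for pseudocount 5, 1.18 with assigned reads, 1.05 after quantile normalization, 1.21 when rescaled to nuclear protein-coding genes and 1.38 by voom. Between knockouts of the sexes it was 0.53 by voom. The cause was not tested, apart from the pseudocount, whose larger value shrinks log2 changes by construction. In males the median ranged from −0.0705 to 0.024 over left-out libraries. Without both female knockout replicate 3 and male knockout replicate 2, an alternative added after the data were seen, it was −0.0705 in males. In the 150 bases nearest the start the motif shares of the members were 73.8% (CHR, either form), 69.0% (TTTGAA alone), 69.0% (CCAAT), 38.1% (CCAAT at 2 or more places) and 2.4% (E2F). Among the 8601 other genes tested they were 9.1%, 5.7%, 29.3%, 8.6% and 1.0% in the same order. Among named genes 12 of 3457 results under alternatives lost their call and 9 gained one, all for Aurkb, Cdc25c and Ndc80. The total includes the male comparison, in which the main model called none of these genes and no call could be lost. Count models on the recovered reads were not run. Cdc25c, with the lowest level, is limited most by depth.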
